A study of Mus musculus with 29 samples.

Results

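The cell cycle genes examined here are 39 genes of the division programme, found by gene symbol in the count table of a study of mouse microglia. They were listed by name for their roles in division, with earlier results of these data known, and all 39 had a row among the 36982 genes of the table. By role they were 9 genes of G1 and its kinases, 10 genes of DNA replication in S phase, 17 genes of G2 and mitosis, and 3 inhibitors of cyclin-dependent kinases (CDKs). The question put to them was whether microglia that had refilled a depleted brain were still dividing when they were collected. Male C57BL/6J mice aged 10 weeks were injected into the peritoneum and injected again 5 weeks later. What they received was lipopolysaccharide (LPS, a bacterial cell wall component) at 1 mg/kg, written L, or saline, written P. From 1 week after the first injection, depleted mice were gavaged for 5 days with BLZ945 at 169 mg/kg per day, written B in the middle of a group name, and all other mice with its cyclodextrin vehicle. BLZ945 inhibits CSF1R, the receptor that microglia need to survive, and microglia return once it is withdrawn. Brains were collected 3 h after the second injection. LBL mice (n = 5) had LPS, BLZ945 and LPS, LL mice (n = 5) LPS, vehicle and LPS, PBL mice (n = 5) saline, BLZ945 and LPS, PL mice (n = 4) saline, vehicle and LPS, PBP mice (n = 5) saline, BLZ945 and saline, and PP mice (n = 5) saline, vehicle and saline. Microglia of LBL, PBL and PBP mice are called repopulated and those of LL, PL and PP mice original. The labels do not say how many cells outlived the depletion, so a repopulated library can hold survivors as well as new cells.

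A cell enters the cycle when D-type cyclins activate CDK4 and CDK6, which release E2F transcription factors from the retinoblastoma protein. E2F factors then drive the genes of DNA replication, and a later wave of genes, many of them with a CHR element in their promoters, drives mitosis. CDK inhibitors of the p21 and INK4 families hold the kinases back. Adult microglia renew themselves slowly, whereas microglia that refill a brain after CSF1R inhibition divide quickly and later come to rest.

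Both waves can be read in the promoters of the members. RefSeq promoters (build GRCm38.p6, 250 bases before to 50 after each gene's start) matched 33 of the 39 genes by symbol. Letters TTTNNCGC, an E2F-type site, were searched on both strands and stood in 5 of 9 S phase promoters (55.6%), in 2 of 6 G1 promoters and in 1 of 15 G2 and M promoters, against 5.93% of the 27025 genes in the promoter table. The CHR letters TTTGAA, on both strands, stood in 11 of 15 G2 and M promoters (73.3%), in 1 of 9 S phase promoters and in none of the 6 G1 and 3 inhibitor promoters, against 20.2% of all genes. A match is a stretch of letters and not a shown binding site. 6 promoters are printed 5′ to 3′ on the strand of the gene because the results below turn on these genes, with the matched letters in capitals. Mcm3 (chr1:20820263-20820562), Mcm6 (chr1:128359656-128359955) and Mcm7 (chr5:138171834-138172133) carry the E2F-type letters. Mki67 (chr7:135716330-135716629), Top2a (chr11:99024140-99024439) and Ccnb2 (chr9:70421505-70421804) carry the CHR letters. All 6 lie on the minus strand. Mcm6 has 3 matches, of which 2 overlap, each of the others has 2, and Mcm7 has 2 promoters in the table, of which 1 is shown.
Mcm3: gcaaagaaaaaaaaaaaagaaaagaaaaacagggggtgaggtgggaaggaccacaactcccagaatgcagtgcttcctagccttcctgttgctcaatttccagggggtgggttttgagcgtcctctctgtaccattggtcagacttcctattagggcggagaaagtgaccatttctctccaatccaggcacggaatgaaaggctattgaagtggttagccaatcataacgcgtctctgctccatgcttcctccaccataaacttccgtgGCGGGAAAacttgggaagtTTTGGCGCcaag
Mcm6: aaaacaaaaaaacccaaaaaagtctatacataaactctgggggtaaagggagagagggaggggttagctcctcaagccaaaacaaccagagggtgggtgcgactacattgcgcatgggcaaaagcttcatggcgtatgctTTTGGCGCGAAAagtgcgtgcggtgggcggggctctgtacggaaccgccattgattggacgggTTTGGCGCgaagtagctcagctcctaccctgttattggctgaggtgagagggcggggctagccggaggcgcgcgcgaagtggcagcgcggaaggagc
Mcm7: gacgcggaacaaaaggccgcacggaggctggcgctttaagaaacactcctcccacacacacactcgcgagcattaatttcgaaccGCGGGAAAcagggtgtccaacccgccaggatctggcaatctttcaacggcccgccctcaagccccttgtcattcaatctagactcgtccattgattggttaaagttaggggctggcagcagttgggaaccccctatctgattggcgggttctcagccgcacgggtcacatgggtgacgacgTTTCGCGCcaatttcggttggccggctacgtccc
Mki67: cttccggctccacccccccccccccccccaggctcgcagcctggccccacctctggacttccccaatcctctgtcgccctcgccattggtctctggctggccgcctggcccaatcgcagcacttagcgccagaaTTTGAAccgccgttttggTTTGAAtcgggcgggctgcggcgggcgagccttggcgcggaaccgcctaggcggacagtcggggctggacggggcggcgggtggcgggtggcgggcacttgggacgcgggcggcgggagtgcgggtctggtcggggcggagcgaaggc
Top2a: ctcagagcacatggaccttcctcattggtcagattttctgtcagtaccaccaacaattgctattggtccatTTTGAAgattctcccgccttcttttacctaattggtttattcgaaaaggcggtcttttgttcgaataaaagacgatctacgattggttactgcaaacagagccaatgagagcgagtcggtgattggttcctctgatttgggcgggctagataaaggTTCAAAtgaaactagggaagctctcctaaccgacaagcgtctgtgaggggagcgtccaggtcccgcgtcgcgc
Ccnb2: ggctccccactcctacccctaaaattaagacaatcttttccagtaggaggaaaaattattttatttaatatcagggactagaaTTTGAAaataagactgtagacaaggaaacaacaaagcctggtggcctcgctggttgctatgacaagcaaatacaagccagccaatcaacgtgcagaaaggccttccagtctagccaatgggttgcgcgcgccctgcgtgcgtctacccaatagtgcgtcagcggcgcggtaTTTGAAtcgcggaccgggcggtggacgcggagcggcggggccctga

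Total counts per library lay between 5670450 and 12671476. Levels are reads scaled to library size (CPM, with TMM factors), and differences are log2 fold changes with standard errors (SE) from edgeR's quasi-likelihood test, fitted to all 29 libraries. Adjusted p-values are Benjamini-Hochberg values over the 16632 genes that passed a filter on low counts, and a gene was called when its adjusted p was under 0.05. Of the 39 members 36 passed that filter, and Ccne1, Ccnb1 and Bub1 did not. The microglial markers P2ry12 and Tmem119 stood at 3270 to 12500 CPM and at 3100 to 7840 CPM over all libraries, and markers of T, B and NK cells summed to at most 1.21 CPM. The sorting instrument and day largely follow the groups. All PP and PL libraries and PBP replicates 1 to 4 came from a MoFlo Astrios sorter. PBP replicate 5 and all PBL, LL and LBL libraries came from a MoFlo XDP. Only PBP has libraries from both, so every fit with the sorter as a covariate takes its sorter term from PBP replicate 5. All PP libraries were sorted on day 5, PBP replicates 1 to 4 on day 4 and PBP replicate 5 on day 3, so no PBP library shares a day with a PP library. Since the labels do not state beyond the sample names that replicates are separate animals, the spread behind each p-value is that between samples and may in part be technical. The comparisons share groups with one another and are not independent.

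Expression of the mitotic genes was low in every group. Per kilobase of exon (GENCODE M21 lengths), the mean level in PP was 76.3 CPM for Cdk4, the kinase partner of the D cyclins, and 48 CPM for Ccnd1, cyclin D1. Replication genes came next, with 17.8 CPM per kilobase for Mcm3, a subunit of the replicative helicase, 8.08 for Pcna, the sliding clamp of DNA polymerase, and 0.735 for Mcm2. Among the 17 G2 and M genes, Ccna2 (cyclin A2) had 2.45, Ccnb2 (cyclin B2) 2.06, Cdc20 (an activator of the anaphase-promoting complex) 1.4 and Cdk1 (the mitotic kinase) 1.08 CPM per kilobase, and the other 13 lay between 0.14 and 0.585. Mki67, which encodes the proliferation marker Ki-67, rested on 19 to 39 reads in each PP library and on 0 to 18 reads in each PBP library.

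**Figure D1:**
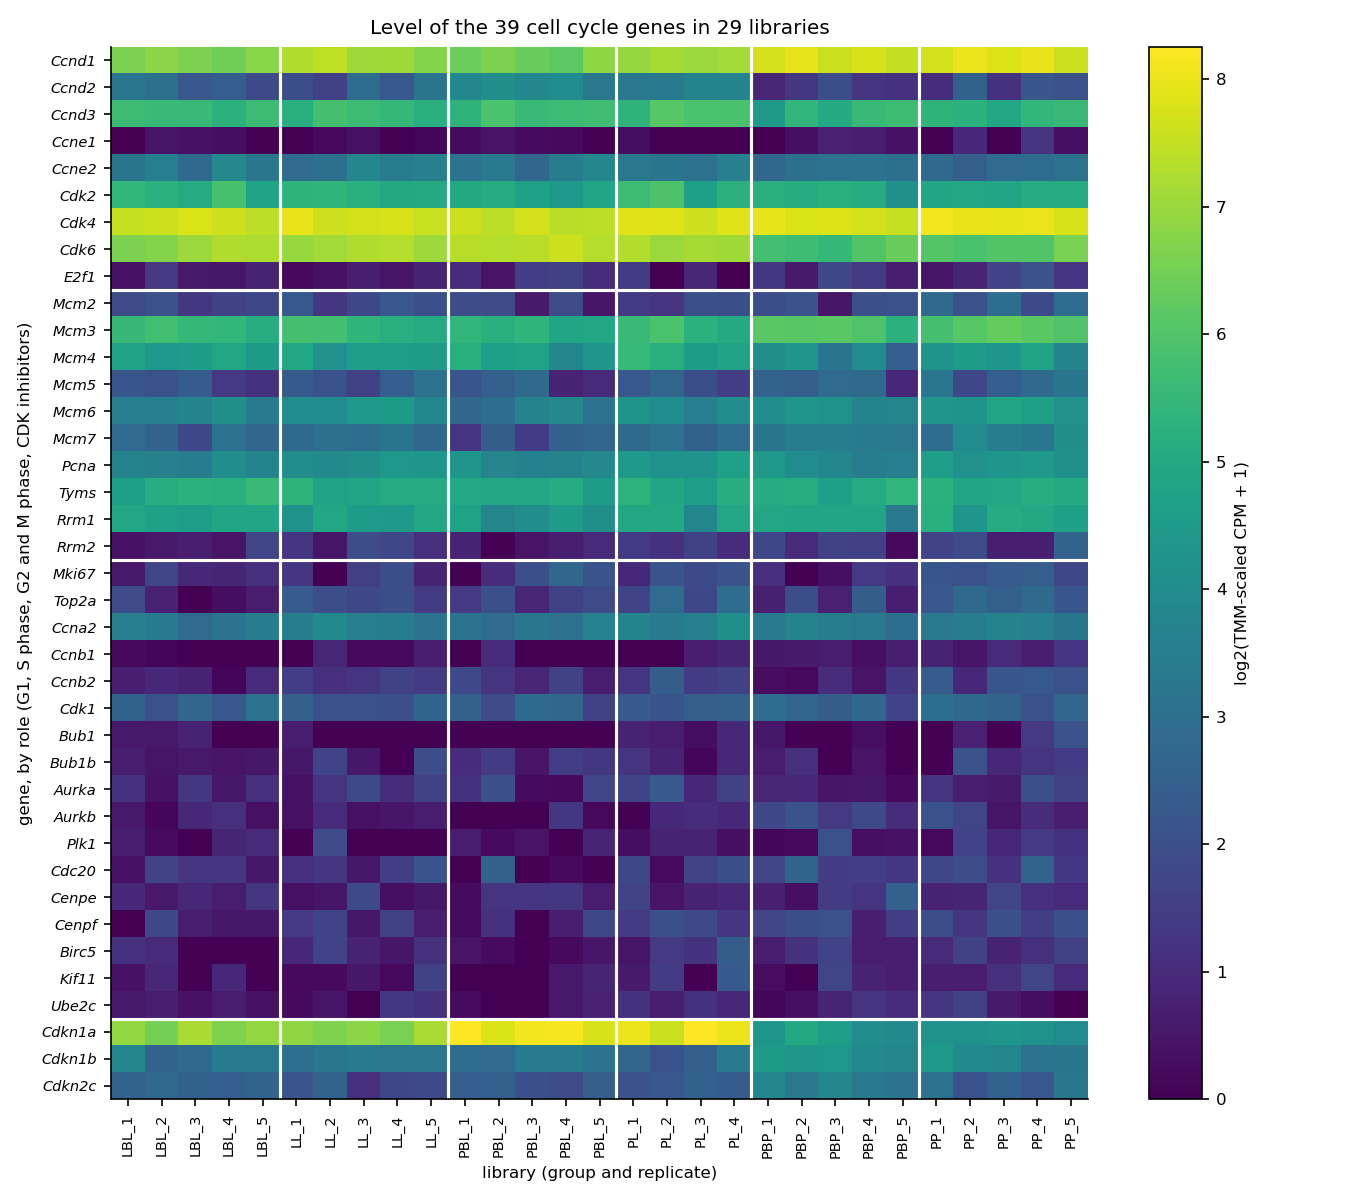
Level of all 39 cell cycle genes (rows, by role) in 29 libraries (columns, by group), as log2(TMM-scaled CPM + 1). Most of the 17 G2 and M rows are dark in every group, and the brightest contrast between groups is Cdkn1a, with 92.3 to 304 CPM in the libraries of LPS-injected mice and 14.4 to 31.6 CPM in PBP and PP.

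Repopulated microglia without LPS (PBP) showed no member of the division programme called higher than in original microglia (PP). No member was called lower either. Called genes were 0.289% higher and 0.241% lower among all genes tested. At an unadjusted p under 0.05, 1 member was higher (Cdkn2c) and 9 were lower, beside 1274 higher and 717 lower of all 16632 genes tested. DESeq2 and limma voom each called 0 higher and 1 lower (Ccnb2). Estimates lay below 0 for 13 of the 15 tested G2 and M genes (median log2 fold change −0.45), for 9 of 10 S phase genes (median −0.40) and for 6 of 8 G1 genes (median −0.17), and above 0 for all 3 inhibitors (median 0.45), against a median of 0.04 over all genes tested. Among further genes of the same processes, 14 of 28 other replication genes (median 0.01) and 19 of 30 other mitosis genes (median −0.08) lay below 0. Depletion and sorting day cannot be told apart by PBP and PP libraries alone. A fit with sorting day as a covariate takes the term between days 4 and 5 from the LPS-injected PL group alone. PL replicates 1 and 2 were sorted on day 4 and PL replicates 3 and 4 on day 5.

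Mki67 had 1.19, 0, 0.269, 1.61 and 1.24 CPM in the 5 PBP libraries, against 3.59, 3.24, 4.18, 4.68 and 2.39 CPM in the 5 PP libraries. Every PBP library lay below every PP library. Mki67 was the single tested member whose groups did not overlap, which held for 1.35% of all genes tested in the direction lower. The log2 fold change was −2.02 (SE 0.74, 95% interval −3.52 to −0.52, adjusted p = 0.23), which was not called. With sorting day as a covariate it was −1.64 (SE 1.36, adjusted p = 0.709). Top2a, the topoisomerase that untangles replicated chromosomes, had 0.649, 2.96, 0.672, 4.38 and 0.621 CPM in PBP, against 3.72, 6.2, 4.81, 6.24 and 3.65 CPM in PP. PBP replicate 4 lay within the PP range and the other 4 below it. The log2 fold change of Top2a was −1.37 (SE 0.56, adjusted p = 0.303).

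Ccnb2, named after its values were seen, came closest to the threshold. It had 0.216, 0.129, 1.07, 0.358 and 1.55 CPM in PBP, against 4.21, 0.944, 3.67, 3.84 and 3.15 CPM in PP. PP replicate 2 was low and lay among the PBP libraries, while the other 4 PP libraries lay above all PBP libraries. Reads of Ccnb2 can be split with its pseudogene Ccnb2-ps, which averaged 1.62 ± 0.59 CPM in PBP and 2.44 ± 1.98 CPM in PP (SD). The log2 fold change of Ccnb2 was −2.28 (SE 0.58, adjusted p = 0.061). Ccnb2 was called without PP replicate 2 (−2.51, adjusted p = 0.0343) or without PBP replicate 5 (−2.83, adjusted p = 0.0208). Without PBP replicate 5 all these libraries came from the Astrios, still on different days, and with sorting day as a covariate Ccnb2 had −3.38 (SE 1.02, adjusted p = 0.158). Cdk1, the partner of the B cyclins, showed no such difference. It had 6.7, 5.4, 4.43, 5.54 and 2.17 CPM in PBP, against 6.94, 5.93, 5.19, 3.24 and 5.42 CPM in PP, so that the groups overlapped. Its log2 fold change was −0.13 (95% interval −0.77 to 0.52, adjusted p = 0.926), and the estimate turned to 0.05 without PBP replicate 5 and to 0.39 with sorting day as a covariate. The other 11 tested G2 and M genes had estimates between −1.79 (Bub1b, a spindle checkpoint kinase) and 0.53 (Aurkb, the Aurora B kinase, and Cenpe, a centromere motor), with wide intervals for all but Ccna2. Ccna2, whose exons overlap those of Exosc9, had −0.08 (95% interval −0.51 to 0.34, adjusted p = 0.927).

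The 3 untested members were near the detection limit. Cyclin B1 (Ccnb1) had 0.268 to 0.621 CPM in PBP and 0.405 to 1.39 CPM in PP. Its pseudogene Ccnb1-ps averaged 0.069 CPM in PBP and 0.557 CPM in PP. Cyclin E1 (Ccne1) had at most 0.672 CPM in PBP and 1.44 CPM in PP. The checkpoint kinase gene Bub1 had no read in 3 of 5 PBP libraries, and in 2 of 5 PP libraries, where the highest level was 3.28 CPM. No read of Bub1 was counted in any PBL library, which puts it below 0.0972 CPM, the level of 3 counts over that group. This limit covers counting error only.

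Summed over all 17 G2 and M genes, PBP libraries had 28.9, 36.5, 34.1, 31.6 and 25.2 CPM, against 41.8, 45.9, 42.4, 50 and 41.7 CPM in PP. Each sum rested on 162 to 354 reads in PBP and 331 to 417 reads in PP. All PBP sums lay below all PP sums, also without Ccna2 (18.3 to 24.6 CPM in PBP, 30.5 to 39.2 CPM in PP) and with unscaled library sizes (28.2 to 35.8 CPM in PBP, 41.1 to 48.5 CPM in PP). The sums are a description and carry no test. Markers of several other cell types differed as well, some lower and some higher in PBP. Endothelial markers (4 of 4 detected in both groups) summed to 7.3 to 19.4 CPM in PBP and 33.8 to 41.3 CPM in PP, and border macrophage markers (5 of 5 detected) to 19.4 to 30.5 CPM in PBP and 32.1 to 82 CPM in PP. Astrocyte markers (5 of 5) summed to 375 to 423 CPM in PBP and 430 to 587 CPM in PP. Neuron markers (7 of 7) had a median of 26.4 CPM in PBP and 18.1 CPM in PP, monocyte markers 16.6 CPM in PBP and 10.5 CPM in PP, and red cell precursor markers 4.47 CPM in PBP and 2.56 CPM in PP, each with overlapping ranges. PBP replicate 5 stood out, with 151 CPM of neuron, 63.4 CPM of red cell precursor and 187 CPM of oligodendrocyte markers. PP libraries had at most 33.4, 6.05 and 90.2 CPM of these. PBP replicate 5 also had the lowest G2 and M sum (25.2 CPM) and the lowest RNA quality number of its group (7.4). The other PBP sums, 28.9 to 36.5 CPM, also lay below all PP sums. The part of other cell types in the lower mitotic sums was not tested. In bulk RNA, fewer dividing cells and less RNA of these genes per cell cannot be told apart.

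**Figure D2:**
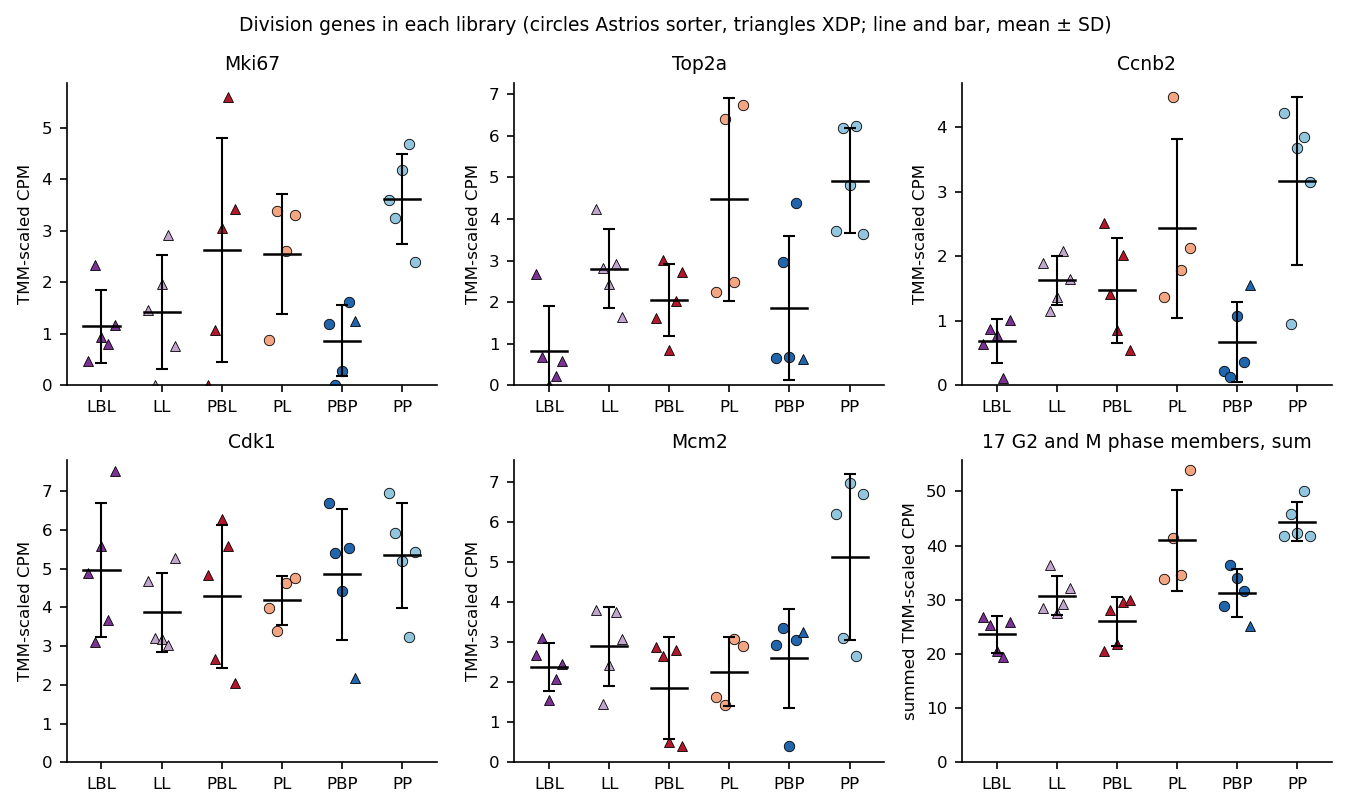
TMM-scaled CPM of Mki67, Top2a, Ccnb2, Cdk1 and Mcm2 and of the sum over 17 G2 and M genes, in each library of the 6 groups (points, with circles for the Astrios and triangles for the XDP sorter; line and bar, mean ± SD). In PBP the summed level lies between 25.2 and 36.5 CPM, below all PP libraries at 41.7 to 50 CPM, while Cdk1 overlaps between all groups.

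Helicase and clamp genes of S phase showed small differences that were not called. Mcm2 had 2.92, 3.34, 0.403, 3.04 and 3.26 CPM in PBP, against 6.2, 3.1, 6.96, 2.64 and 6.68 CPM in PP (log2 fold change −0.97, SE 0.46, adjusted p = 0.386). PP replicates 2 and 4 lay within the PBP range and the other 3 well above it. Mcm5 had 5.08, 4.63, 6.45, 6.26 and 0.932 CPM in PBP, against 8.43, 2.43, 4.56, 6.12 and 8.19 CPM in PP, with a log2 fold change of −0.34 (adjusted p = 0.846). Pcna had 21.1, 15.2, 12.8, 10.4 and 10.7 CPM in PBP, against 23.2, 17, 19, 21.1 and 16.6 CPM in PP (log2 fold change −0.46, SE 0.19, adjusted p = 0.292). Only PBP replicate 1 reached the PP range. Reads of Pcna can be split with its pseudogene Pcna-ps2, which averaged 17.7 ± 4.55 CPM in PBP and 24.3 ± 2.1 CPM in PP (SD, n = 5 each). With sorting day as a covariate the log2 fold changes were −0.09 for Mcm2, −1.03 for Mcm5 and −0.23 for Pcna, none of them called. Summed over the 10 S phase genes, PBP libraries had 131 to 204 CPM and PP libraries 195 to 230 CPM, which overlapped.

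Entry genes and inhibitors were likewise not called between PBP and PP. Cyclin D1 averaged 206 ± 25.5 CPM in PBP and 226 ± 29.1 CPM in PP (SD, n = 5 each), with a log2 fold change of −0.13 (95% interval −0.39 to 0.12). For cyclin D2 (Ccnd2) the estimate was −0.82 (SE 0.42, adjusted p = 0.444). Cyclin D3 (Ccnd3) had −0.05 (SE 0.18), a sign that turned without PP replicate 5 (0.02), PBP replicate 1 (0.11) or PBP replicate 3 (0.01). Among the inhibitors Cdkn2c, which encodes the CDK4 and CDK6 inhibitor p18, had 13.4, 8.87, 12.4, 9.12 and 7.77 CPM in PBP, against 7.68, 3.24, 5.06, 3.72 and 8.44 CPM in PP. PBP replicate 5 and PP replicates 1 and 5 lay close together, and the other PBP libraries lay above all PP libraries. The log2 fold change was 0.87 (SE 0.29, adjusted p = 0.19). Cdkn1b (p27) had 0.45 (SE 0.26, adjusted p = 0.524) and Cdkn1a (p21) had 0.23 (SE 0.17, adjusted p = 0.645). With sorting day as a covariate the estimates were −0.36 for Ccnd2, 1.33 for Cdkn2c, 1.23 for Cdkn1b and 0.64 for Cdkn1a, none of them called.

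**Figure D3:**
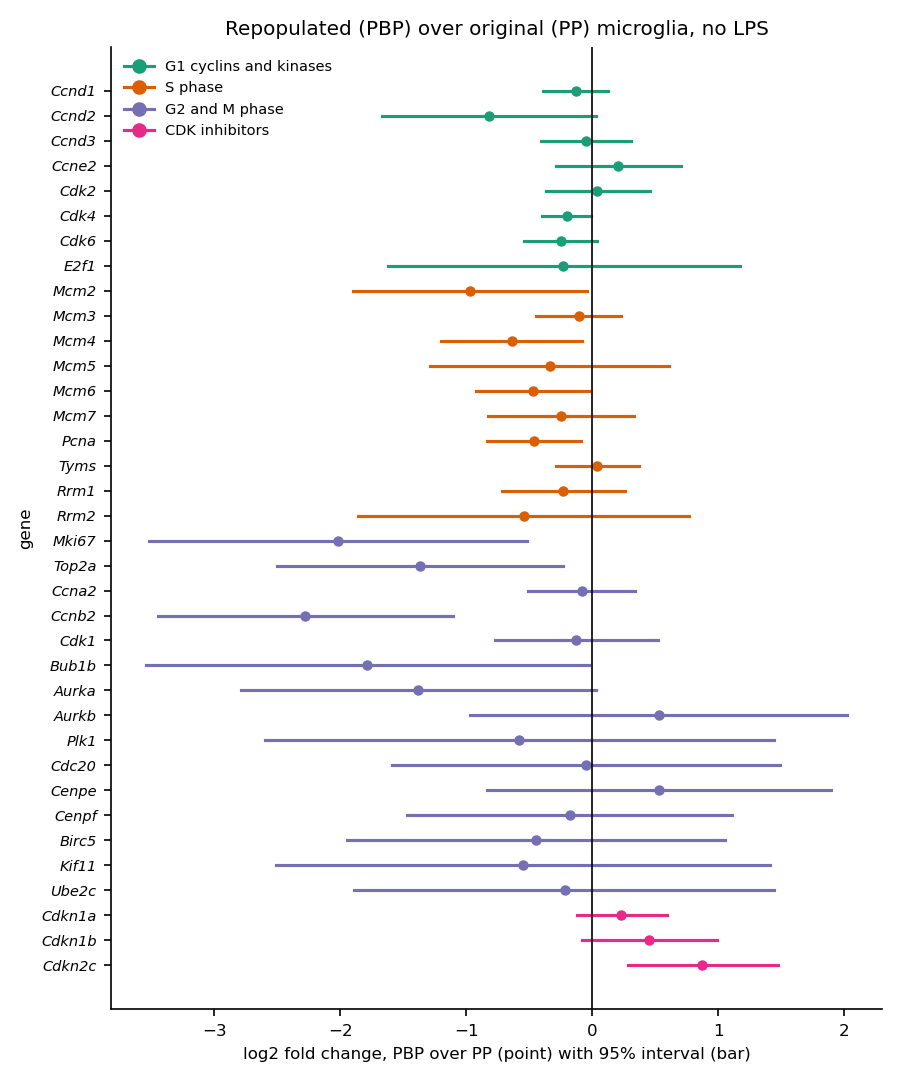
Log2 fold change, PBP over PP, of the 36 tested cell cycle genes (points) with 95% intervals (bars), by role. Mki67 (−2.02) and Ccnb2 (−2.28) lie furthest left, Cdkn2c (0.87) lies furthest right, and none of the 36 was called.

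After a first LPS injection, repopulated microglia (PBL) again had no division gene called higher than original microglia (PL), and 6 members were called lower. Called genes were 11% higher and 11.1% lower among all genes tested, so 6 of 36 members stood against 11.1%. At an unadjusted p under 0.05, 0 members were higher and 9 lower, and DESeq2 and limma voom also called 0 higher. The 6 were cyclin D1, Cdk2 (the partner of cyclins E and A), Cdk4, Mcm6 (a helicase subunit), Pcna and Birc5 (survivin, a subunit of the chromosomal passenger complex). All PBL libraries were sorted on the XDP and all PL libraries on the Astrios, so depletion and sorter cannot be told apart here, and with the sorter as a covariate 0 members were called.

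Ccnd1 had 80.8, 97.7, 79.6, 71.4 and 115 CPM in PBL, against 122, 141, 127 and 137 CPM in PL. The groups did not overlap, which held for 2 members in the direction lower (Ccnd1 and, uncalled, Rrm2, against 6.13% of all genes tested) and for 1 in the direction higher (Cdk6, uncalled, against 10.1%). Ccnd1 fell by 0.57 on the log2 scale (SE 0.13, adjusted p = 0.00416). Exons of Ccnd1 overlap those of LTO1 on the other strand, and the strand setting of the counting is not given in the sources used here. Birc5 had 0.358, 0.178, 0, 0.155 and 0.41 CPM in PBL, or 0 to 3 reads in each library, against 0.373, 1.6, 1.3 and 4.37 CPM in PL. PL replicate 1 lay within the PBL range. Birc5 fell by 3.00 on the log2 scale (SE 0.90, adjusted p = 0.018), and without PL replicate 4 the change was −2.17 with an adjusted p of 0.117.

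Weaker calls came for the other 4 genes, each lost when any 1 of several libraries was left out. Cdk2 had 31.2, 33.9, 25.5, 20.3 and 27.7 CPM in PBL, against 49.7, 60.6, 24 and 38.9 CPM in PL, where replicate 3 lay within the PBL range (log2 fold change −0.64, SE 0.22, adjusted p = 0.0326). Without PL replicate 2 the change of Cdk2 was −0.44 (adjusted p = 0.177), and the call was also lost without PL replicate 1 or 4 or PBL replicate 3, 4 or 5. Cdk4 had 190, 172, 205, 169 and 171 CPM in PBL, against 233, 230, 195 and 231 CPM in PL (log2 fold change −0.29, SE 0.10, adjusted p = 0.0353). PL replicate 3 was again low. The Cdk4 call was lost without PL replicate 1, 2 or 4 or PBL replicate 2, 4 or 5. Mcm6 had 5.55, 6.75, 11.9, 13.8 and 7.92 CPM in PBL, against 18.3, 15, 10.5 and 15.6 CPM in PL (log2 fold change −0.69, SE 0.24, adjusted p = 0.0392). Pcna had 19, 12.6, 11.4, 11.8 and 13.8 CPM in PBL, against 20.5, 17.8, 17.4 and 25.4 CPM in PL (log2 fold change −0.57, SE 0.20, adjusted p = 0.0386). PBL replicate 1 was the PBL library within the PL range of Pcna. Mcm6 was not called without PL replicate 1, 2 or 4 or PBL replicate 1, 2 or 5, and Pcna not without PL replicate 1 or 4 or PBL replicate 2, 3, 4 or 5.

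Mki67 was spread widely after LPS, with 0, 1.07, 3.06, 5.59 and 3.42 CPM in PBL against 0.871, 3.39, 2.6 and 3.31 CPM in PL. The groups overlapped over their whole range, and PBL held both the lowest and the highest library. G2 and M sums were 20.6 to 29.9 CPM in PBL and 33.9 to 54 CPM in PL and did not overlap. Markers of immature neutrophils and granulocyte precursors (6 of 7 in the table) summed to 74.2 to 298 CPM in PBL and 0 to 9.23 CPM in PL. In PBL nearly all of the sum came from Ngp, Camp and Ltf (means of 123, 50.7 and 21.1 CPM). Elane averaged 0.155 CPM in PBL, where Mpo and Prtn3 were at 0. Elane, Mpo and Prtn3 were at 0 in PL. Mature neutrophil markers (6 of 6) summed to 53.5 to 216 CPM in PBL and 1.74 to 11.8 CPM in PL. Endothelial markers summed to 7.38 to 15.6 CPM in PBL and 17 to 32.7 CPM in PL, where Cldn5 was at 0, and border macrophage markers to 10.1 to 24 CPM in PBL and 64.3 to 103 CPM in PL. Neuron markers (111 to 202 CPM in PBL, 21.9 to 43.3 CPM in PL), oligodendrocyte markers (113 to 239 CPM in PBL, 54.1 to 96.7 CPM in PL) and markers of neural stem cells and neuroblasts (9.32 to 18.8 CPM in PBL, 1.78 to 3.31 CPM in PL) were higher in every PBL library. Their part in the lower cell cycle levels was not tested.

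After repeated LPS, repopulated microglia (LBL) differed from original microglia (LL) in 1 member. Called genes were 0.487% higher and 0.722% lower among all genes tested, and 0 of 36 members were called higher (1 at an unadjusted p under 0.05, and 0 with DESeq2 or limma voom). Ccnd1 had 97.2, 111, 96.7, 86.3 and 110 CPM in LBL, against 153, 176, 132, 134 and 104 CPM in LL. LL replicate 5 lay among the LBL libraries and the other 4 above them. LL replicate 5 was sorted on day 1 with LBL replicates 1 to 4, and LL replicates 1 to 4 on day 2 with LBL replicate 5. The log2 fold change was −0.48 (SE 0.13, adjusted p = 0.0496), and the call was lost when any 1 LBL library or any 1 of LL replicates 1 to 4 was left out (adjusted p up to 0.129). It was also lost with sorting day as a covariate (−0.26, adjusted p = 0.495). Without LBL replicate 1, where Ccnd1 had an adjusted p of 0.112, 1 member was still called lower, so that call was of another member. Top2a had 2.68, 0.68, 0, 0.23 and 0.579 CPM in LBL, against 4.23, 2.83, 2.43, 2.91 and 1.64 CPM in LL (log2 fold change −1.77, SE 0.61, adjusted p = 0.17). LBL replicate 1 lay within the LL range and the other 4 below it. Ccnb2 was the 1 member whose groups did not overlap, against 3.03% of all genes tested in the direction lower. It had 0.631, 0.875, 0.776, 0.115 and 1.01 CPM in LBL, against 1.9, 1.15, 1.36, 2.08 and 1.64 CPM in LL, and was not called (log2 fold change −1.24, adjusted p = 0.359). G2 and M sums were 19.4 to 26.8 CPM in LBL and 27.6 to 36.4 CPM in LL and did not overlap. Endothelial markers summed to 5.59 to 10.1 CPM in LBL and 11.7 to 27.7 CPM in LL, and border macrophage markers to 6.2 to 17.2 CPM in LBL and 37.2 to 66.4 CPM in LL, and their part was not tested.

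Whether depletion acted differently with and without a first LPS injection, and with and without an earlier one before it, was tested directly. No member was called for the difference between PBL over PL and PBP over PP, where 0% of all genes tested were called, nor for the difference between LBL over LL and PBL over PL, where 0.0241% were. At an unadjusted p under 0.05 there were 2 members higher and 4 lower in the first contrast and 1 higher and 1 lower in the second, and DESeq2 and limma voom called 0 members in either.

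Most members called after LPS were genes of cycle entry, helicase genes and inhibitors. Most G2 and M genes were measured less precisely, so their fewer calls do not show a smaller response. In PL against PP the SE was 0.10 for Cdk4 and 0.18 for Mcm3, against 0.22 for Ccna2, 0.74 for Mki67 and 1.12 for Plk1. In original microglia (PL against PP) 4 of 36 members rose and 4 fell, where 14.2% of all genes tested were called higher and 11.9% lower. In repopulated microglia (PBL against PBP) 4 of 36 rose and 8 fell, where 21.5% were called higher and 21.5% lower. Of the 15 tested G2 and M genes none was called in PL against PP (0 at an unadjusted p under 0.05, and 0 with DESeq2 or limma voom) and 1 was called lower in PBL against PBP (Aurkb), where DESeq2 called 2 lower (Aurkb and Birc5) and limma voom 2 (Aurkb and Cdc20). The second comparison sets 5 XDP libraries against 4 Astrios libraries and 1 XDP library. The sorter term rests on PBP replicate 5, and with it as a covariate 4 members rose and 1 fell in this comparison. Groups did not overlap for 4 members higher and 1 lower in PL against PP (11.5% and 10.4% of all genes tested) and for 3 higher and 5 lower in PBL against PBP (12.5% and 11.6%). Markers of other cells differed too. Markers of immature neutrophils and granulocyte precursors summed to 74.2 to 298 CPM in PBL and 0 to 4.04 CPM in PBP, with Mpo and Prtn3 at 0 in both. Mature neutrophil markers summed to 53.5 to 216 CPM in PBL and 0 to 2.49 CPM in PBP. Neuron markers summed to a median of 152 CPM in PBL and 26.4 CPM in PBP. RNA quality numbers were 7.4 to 7.9 in PBL, against 8.8 to 9 in PBP replicates 1 to 4 and 7.4 in PBP replicate 5. In PL astrocyte markers summed to 742 to 1020 CPM, against 430 to 587 CPM in PP, and endothelial markers to 17 to 32.7 CPM, against 33.8 to 41.3 CPM in PP. Their part in the changes was not tested.

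Cdkn1a, which encodes p21, an inhibitor of cyclin-dependent kinases and a classical target of p53, showed the largest change of any member. It had 256, 191, 298 and 258 CPM in PL, against 17.8, 17.9, 19.4, 18 and 15.2 CPM in PP, and 304, 220, 277, 280 and 213 CPM in PBL, against 19.5, 31.6, 23.1, 15.5 and 14.4 CPM in PBP. The LPS groups lay far above the saline groups. The log2 fold change was 3.83 (SE 0.18, adjusted p = 2.93e-18) in original and 3.64 (SE 0.18, adjusted p = 4.4e-18) in repopulated microglia, that is 14.2-fold and 12.4-fold.

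Cyclin D2 and Cdk6 rose in both settings. Ccnd2 had 8.96, 9.27, 12.1 and 11.9 CPM in PL, against 1.12, 4.85, 1.27, 3.6 and 3.15 CPM in PP, and rose by 1.92 on the log2 scale (SE 0.40, adjusted p = 0.000331). In repopulated microglia it had 13.3, 15.8, 13.6, 15.2 and 8.88 CPM in PBL, against 0.865, 1.54, 2.96, 1.34 and 1.24 CPM in PBP, and rose by 3.07 (SE 0.41, adjusted p = 1.76e-07). Neither pair of groups overlapped. Cdk6, a kinase partner of the D cyclins, had 158, 128, 141 and 135 CPM in PL, against 65.2, 57.6, 63.4, 64 and 96 CPM in PP, and rose by 1.02 (SE 0.15, adjusted p = 1.96e-06). It had 165, 162, 165, 196 and 161 CPM in PBL, against 54.3, 50.3, 44.1, 62.9 and 80.2 CPM in PBP, and rose by 1.54 (SE 0.15, adjusted p = 1.16e-10). LPS and saline libraries were again fully apart.

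Cyclin D1 went the other way. Ccnd1 had 122, 141, 127 and 137 CPM in PL, against 205, 259, 226, 251 and 190 CPM in PP, and fell by 0.78 on the log2 scale (SE 0.14, adjusted p = 2.9e-05). In PBL it had 71.4 to 115 CPM, against 203, 245, 190, 213 and 178 CPM in PBP, and fell by 1.21 (SE 0.13, adjusted p = 1.68e-09). Groups did not overlap in either setting. Cyclin D3 had 40.4, 68.1, 59.7 and 57.7 CPM in PL, against 40.5, 37.2, 30.2, 43.3 and 46.7 CPM in PP, where PL replicate 1 lay within the PP range. Its log2 fold change was 0.51 (SE 0.19, adjusted p = 0.0414), a call lost without PP replicate 1, 2 or 3 or PL replicate 2, 3 or 4 (0.41 without PL replicate 2) and with sorting day as a covariate (0.57, adjusted p = 0.0544). Between PBL and PBP Ccnd3 was not called (0.38, adjusted p = 0.0866).

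**Figure D4:**
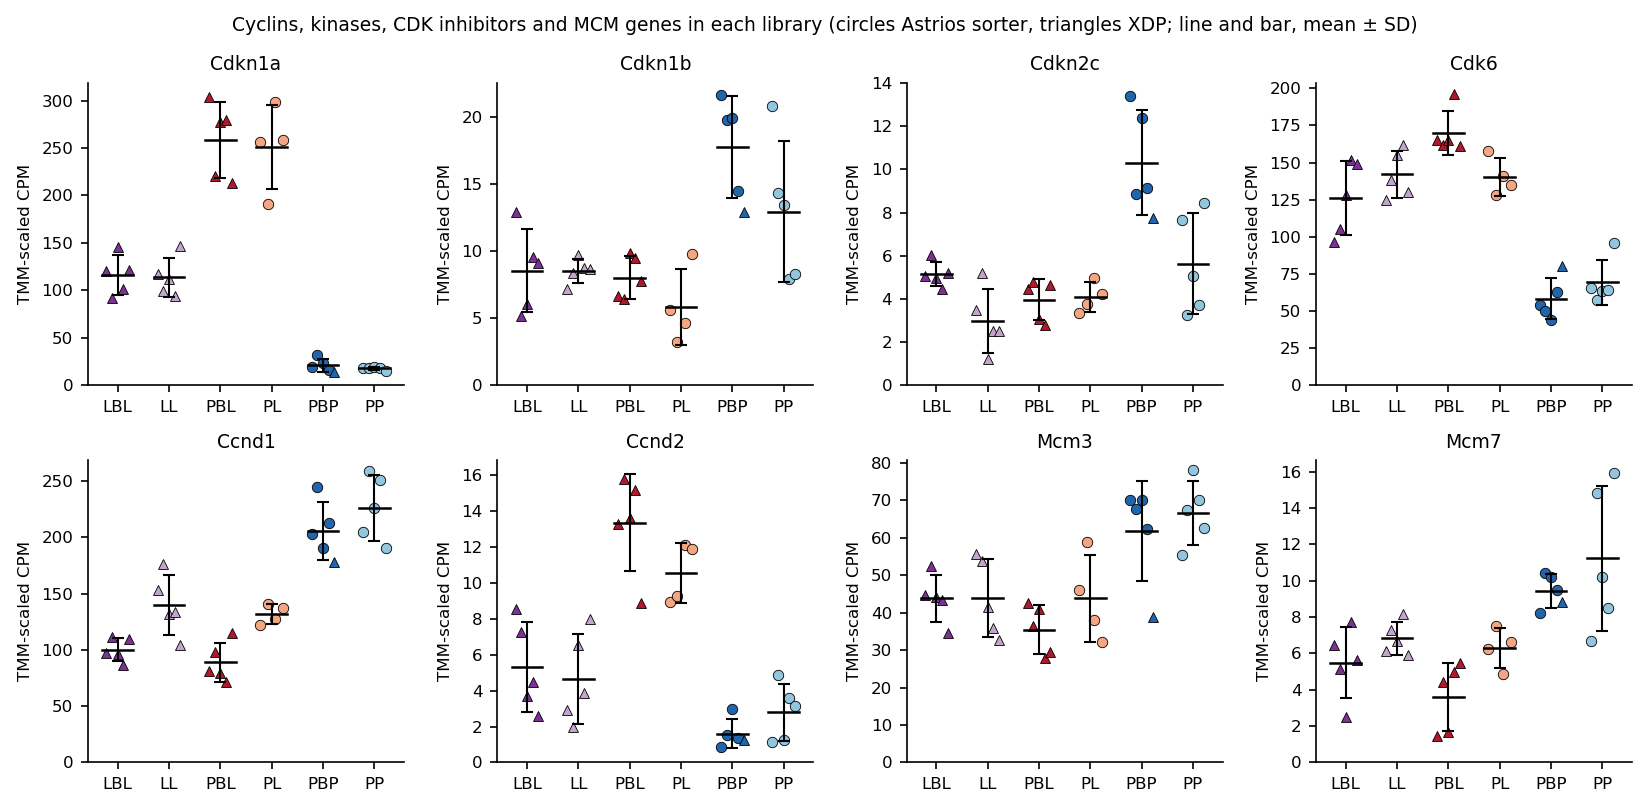
TMM-scaled CPM of 8 members of cell cycle entry, inhibition and replication in each library (circles, Astrios sorter; triangles, XDP sorter; line and bar, mean ± SD). Cdkn1a, Cdk6 and Ccnd2 are higher in PBL than PBP and in PL than PP, Ccnd1 is lower, and Cdkn1a in LBL and LL (92.3 to 147 CPM) lies between the saline groups and the libraries with a single LPS injection.

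Cdkn1b, the gene of the inhibitor p27, fell while Cdkn1a rose. It had 5.6, 3.21, 4.62 and 9.79 CPM in PL, against 20.8, 14.3, 13.4, 7.91 and 8.32 CPM in PP (log2 fold change −1.15, SE 0.30, adjusted p = 0.00354), with PL replicate 4 within the PP range. With sorting day as a covariate this call was lost (−0.85, adjusted p = 0.0876). It had 6.63, 6.39, 9.86, 9.47 and 7.79 CPM in PBL, against 21.6, 19.8, 19.9, 14.5 and 12.9 CPM in PBP (log2 fold change −1.14, SE 0.27, adjusted p = 0.001), with no overlap. Cdkn2c was called in repopulated microglia, where PBL libraries had 4.48, 4.8, 3.06, 2.79 and 4.64 CPM against 13.4, 8.87, 12.4, 9.12 and 7.77 CPM in PBP (log2 fold change −1.38, SE 0.30, adjusted p = 0.0004), again without overlap. In original microglia it had 3.36, 3.74, 4.97 and 4.23 CPM in PL, against 7.68, 3.24, 5.06, 3.72 and 8.44 CPM in PP, and was not called. The difference of the Cdkn2c responses was not called either (−0.92, SE 0.44, adjusted p = 0.379). With the sorter as a covariate the falls of Cdkn1b (−0.68, adjusted p = 0.381) and Cdkn2c (−0.97, adjusted p = 0.217) between PBL and PBP were not called.

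Of the helicase genes 3 were called lower after LPS, 2 of them in both settings, and 1 was called higher. Mcm3 had 46, 59, 38 and 32.2 CPM in PL, against 55.3, 67.4, 78.2, 70 and 62.6 CPM in PP, with PL replicate 2 within the PP range (log2 fold change −0.61, SE 0.18, adjusted p = 0.0113, and 0.057 without PL replicate 4). It had 42.5, 36.4, 41.1, 27.9 and 29.6 CPM in PBL, against 70.1, 67.8, 70, 62.3 and 38.8 CPM in PBP (log2 fold change −0.80, SE 0.17, adjusted p = 0.000327). PBP replicate 5, the XDP library of that group, lay within the PBL range. Mcm7 had 6.22, 7.49, 4.85 and 6.62 CPM in PL, against 6.69, 14.8, 10.2, 8.51 and 15.9 CPM in PP, with PP replicate 1 within the PL range (log2 fold change −0.84, SE 0.31, adjusted p = 0.0451). This call was lost without PP replicate 2, 3 or 5 or PL replicate 1, 3 or 4 (−0.68 without PP replicate 5), and with sorting day as a covariate (−0.97, adjusted p = 0.0833). In PBL Mcm7 had 1.43, 4.44, 1.7, 4.97 and 5.46 CPM, against 8.22, 10.4, 10.2, 9.48 and 8.85 CPM in PBP, with no overlap (log2 fold change −1.37, SE 0.31, adjusted p = 0.000501). Mcm6 averaged 9.19 ± 3.52 CPM in PBL and 15.5 ± 3.01 CPM in PBP (SD, n = 5 each) and was called lower (−0.75, SE 0.23, adjusted p = 0.00874). The printed promoters of these 3 genes hold E2F-type letters, as do those of Cdk6, which rose, and of Mcm5, Tyms, Cdk1 and Cdk2, which were not called in PBL against PBP. Mcm4 went the other way, with 35.8, 25, 26.2, 12.7 and 19.1 CPM in PBL, against 15.8, 19.2, 8.06, 14.8 and 4.5 CPM in PBP. It rose by 0.91 on the log2 scale (SE 0.28, adjusted p = 0.00806), although PBL replicates 4 and 5 lay within the PBP range, and the estimate was 2.39 with the sorter as a covariate. With that covariate the falls of Mcm3 (−0.13), Mcm6 (−0.48) and Mcm7 (−1.28) between PBL and PBP were not called (adjusted p of 0.843, 0.504 and 0.084).

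Cdk4 and Aurkb were the remaining calls in repopulated microglia. Cdk4 had 190, 172, 205, 169 and 171 CPM in PBL, against 248, 219, 223, 204 and 185 CPM in PBP (log2 fold change −0.25, SE 0.10, adjusted p = 0.0335), a call lost without PBP replicate 1, 2 or 3 or PBL replicate 2, 4 or 5 (−0.19 without PBP replicate 1). The Cdk4 call was also lost with RLE scaling, DESeq2, no filter or the compared groups alone. With the sorter as a covariate the change of Cdk4 was −0.03 (adjusted p = 0.943), and it was also −0.03 with sorting day. Aurkb, the catalytic subunit of the chromosomal passenger complex, had 0, 0, 0, 1.55 and 0.137 CPM in PBL, against 2.38, 3.34, 1.61, 2.5 and 1.09 CPM in PBP. PBL replicate 4, with 10 reads, lay within the PBP range, and the other 4 held 1 read among them. Aurkb fell by 2.60 on the log2 scale (SE 0.85, adjusted p = 0.0135), and the change was −5.3 without PBL replicate 4. The sorter as a covariate left −1.60 (adjusted p = 0.53). Between PBL and PBP Mki67 was not called (1.57, SE 0.74, adjusted p = 0.0859), with levels of 0 to 5.59 CPM in PBL and 0 to 1.61 CPM in PBP.

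For the 7 members called in both settings (Ccnd1, Ccnd2, Cdk6, Mcm3, Mcm7, Cdkn1a and Cdkn1b) the difference between the 2 LPS responses was not called. Adjusted p-values of that difference ran from 0.294 (Cdk6, 0.53, SE 0.21) to 0.998 (Cdkn1b, 0, SE 0.35). Ccnd2 differed by 1.16 (SE 0.56, adjusted p = 0.389) and Cdkn1a by −0.19 (SE 0.24, adjusted p = 0.773).

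**Figure D5:**
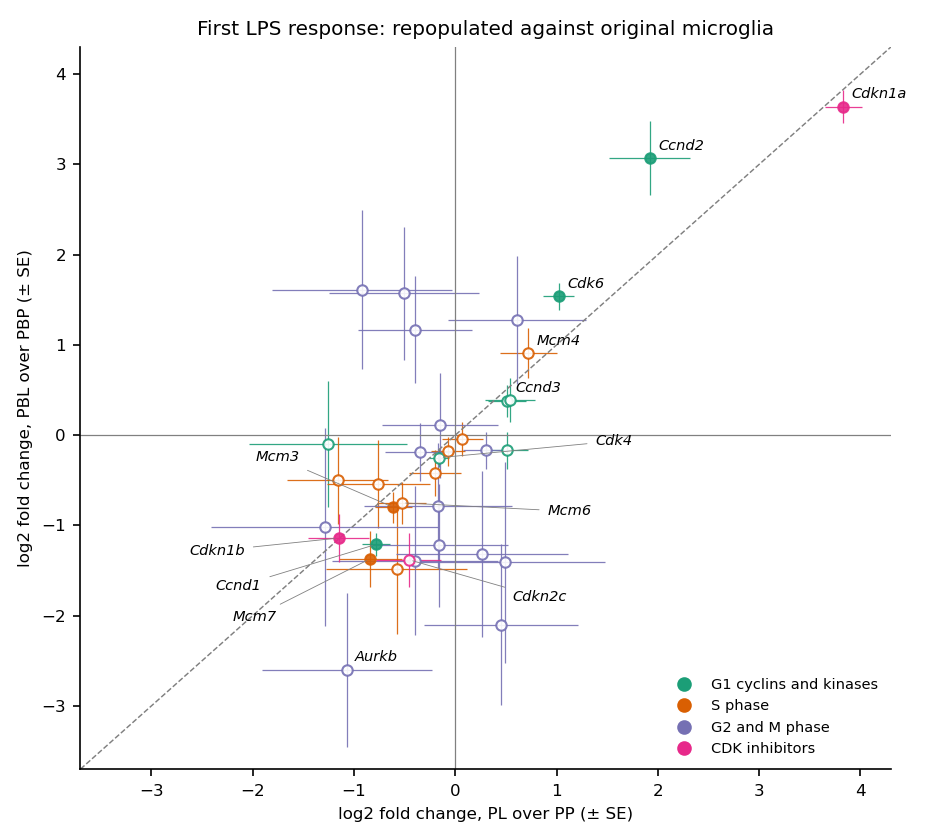
Log2 fold change (± SE) of the 36 tested members after a first LPS injection, in original microglia (PL over PP, horizontal axis) and in repopulated microglia (PBL over PBP, vertical axis). Filled points were called in both settings, labelled open points in 1 of them, and the dashed line marks equal responses. Cdkn1a (3.83 and 3.64) lies near the line, and Ccnd2 (1.92 and 3.07) lies above it by a difference that was not called.

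Mice with an earlier LPS injection showed less p21 message after the second. Cdkn1a had 117, 99.2, 112, 94.5 and 147 CPM in LL, against 256, 191, 298 and 258 CPM in PL, and 120, 92.3, 146, 101 and 121 CPM in LBL, against 304, 220, 277, 280 and 213 CPM in PBL. The groups did not overlap. In LL against PL this held for 2 members lower and 0 higher, against 2.84% and 2.69% of all genes tested, and in LBL against PBL for 3 lower and 0 higher, against 4.44% and 2.66%. Cdkn1a fell by 1.14 on the log2 scale in LL (SE 0.16, adjusted p = 2.75e-05) and by 1.16 in LBL (SE 0.16, adjusted p = 4.1e-06). In LL against PL this was 1 member called lower and 0 higher, where 2.03% and 0.752% of all genes tested were called. LL libraries came from the XDP and PL libraries from the Astrios. With the sorter as a covariate, a term that PBP replicate 5 alone sets, 0 members were called in LL against PL. LBL and PBL libraries all came from the XDP, on different days. Markers of immature neutrophils and granulocyte precursors summed to 0 to 0.947 CPM in LBL and 74.2 to 298 CPM in PBL, with Mpo at 0 in both. Mature neutrophil markers summed to 0.723 to 3.79 CPM in LBL and 53.5 to 216 CPM in PBL. Monocyte markers summed to 5.12 to 10.3 CPM in LBL and 11.7 to 60.5 CPM in PBL. Neuron markers summed to 47 to 197 CPM in LL and 21.9 to 43.3 CPM in PL. Their part in the lower levels was not tested.

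Cyclin D2 was the other member called in LBL against PBL, where 2 members were called lower and 0 higher against 4% and 2.74% of all genes tested. It had 8.52, 7.29, 3.72, 4.48 and 2.6 CPM in LBL, against 13.3, 15.8, 13.6, 15.2 and 8.88 CPM in PBL, with no overlap (log2 fold change −1.32, SE 0.37, adjusted p = 0.0237). The call was lost without PBL replicate 2 or 4 or LBL replicate 3, 4 or 5 (−1.15 without LBL replicate 5). Ccnd2 had 2.92, 1.99, 6.52, 3.87 and 8 CPM in LL, against 8.96, 9.27, 12.1 and 11.9 CPM in PL, also without overlap (log2 fold change −1.19, SE 0.39), but an adjusted p of 0.0956 left it uncalled. No member was called higher in either comparison. At an unadjusted p under 0.05, 0 members were higher in LL than in PL and 2 in LBL than in PBL, and DESeq2 and limma voom called 0.

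Further genes of the pathway were read from 4 lists that were chosen with earlier results of these data known. Among 28 tested genes of replication, 30 of mitosis, 26 of G1 and G0 control and 17 p53 targets, 0 were called in PBP against PP. Of all genes tested 0.289% were called higher there and 0.241% lower. At an unadjusted p under 0.05 the lists held 0, 1, 1 and 1 genes higher and 3, 2, 0 and 1 lower. Among all 16632 genes tested 1274 were higher and 717 lower at that threshold. PBL against PL had 1 replication gene higher and 1 lower, 5 mitosis genes lower, 1 G1 and G0 gene higher and 6 lower, and 2 p53 targets lower. Of all genes tested 11% were called higher in that comparison and 11.1% lower. Depletion and sorter cannot be told apart there, and with the sorter as a covariate 0 of all genes tested were called higher and 3 lower. Nuf2, a kinetochore gene, averaged 0.109 ± 0.244 CPM in PBL (n = 5) and 1.82 ± 0.686 CPM in PL (n = 4, SD) and fell by 3.71 on the log2 scale (SE 1.1, adjusted p = 0.0162). Rb1, the retinoblastoma gene, fell by 0.48 (SE 0.14, adjusted p = 0.0147). LBL against LL had 1 call, the p53 target Sesn2, which rose by 0.97 (SE 0.25, adjusted p = 0.0428). There 0.487% of all genes tested were called higher and 0.722% lower.

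After LPS the mitosis list of 30 genes held 1 that rose and 1 that fell in original microglia, where 14.2% of all genes tested rose and 11.9% fell, and 1 that rose and 8 that fell in repopulated microglia, where 21.5% rose and 21.5% fell. The riser was Kif2c, a kinesin that depolymerises microtubules, in both. It averaged 76.2 ± 3.49 CPM in PL (n = 4) and 1.7 ± 0.407 CPM in PP (n = 5), and 71.8 ± 13.7 CPM in PBL and 2.04 ± 2.4 CPM in PBP (SD, n = 5 each). The log2 fold changes were 5.48 (SE 0.39, adjusted p = 3.6e-12) and 5.01 (SE 0.37, adjusted p = 4.91e-12). Ncaph, a condensin subunit, fell in both (−1.02, SE 0.26 and −1.55, SE 0.25). PBL against PBP sets XDP libraries mostly against Astrios libraries. With the sorter as a covariate, 994 of all genes tested were called lower there instead of 3583, and 1230 higher instead of 3580. Calls of the 4 lists with that covariate were not counted. For the difference between the 2 LPS responses 0% of all genes tested were called.

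Against the same shares of all genes, replication genes numbered 2 higher and 3 lower of 28 in original, and 2 higher and 6 lower in repopulated microglia. Tk1, thymidine kinase, rose by 1.91 (SE 0.34, adjusted p = 4.34e-05) and by 2.59 (SE 0.33, adjusted p = 6.83e-08). Genes of G1 and G0 control numbered 3 higher and 6 lower of 26, and 3 higher and 10 lower. Cdkn2d, the gene of another INK4 inhibitor, averaged 166 ± 9.67 CPM in PL (n = 4) and 16.5 ± 3.64 CPM in PP (n = 5, SD), and rose by 3.33 (SE 0.16, adjusted p = 3.88e-18) and, in repopulated microglia, by 3.15 (SE 0.16, adjusted p = 7.16e-18). Rb1 had log2 fold changes of −0.88 (SE 0.14) and −1.39 (SE 0.13), and Ccng2, cyclin G2, of −2.29 (SE 0.18) and −2.82 (SE 0.18), all called. Targets of p53 numbered 7 higher and 2 lower of 17, beside 14.2% and 11.9% of all genes, and 6 higher and 4 lower, beside 21.5% and 21.5%. Plk2 rose by 3.68 (SE 0.36) and by 2.66 (SE 0.33), and Sesn1 had −1.63 (SE 0.18) and −1.99 (SE 0.17), both called.

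With an earlier LPS injection few of these genes differed, as did few of all genes tested. Of all genes tested 0.752% were called higher and 2.03% lower in LL against PL, and 2.74% and 4% in LBL against PBL. LL against PL had 1 G1 and G0 gene lower (Cdkn2d, −0.57, SE 0.15, adjusted p = 0.0233) and 1 p53 target lower (Pmaip1, −1.07, SE 0.29, adjusted p = 0.0339). In LBL against PBL, Tk1 (−1.44, SE 0.31, adjusted p = 0.00274) and Prc1, a gene of the central spindle (−1.60, SE 0.49, adjusted p = 0.0399), were lower, and Ccng2 (0.83, SE 0.18) and Xpc (1.28, SE 0.27) were higher.

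Overlapping exons make some values uncertain, since the counting's strand setting is not given. Ccna2 shares 510 exonic bases with Exosc9, Cdk4 shares 641 with Tspan31, Ccnd1 shares 1100 with LTO1 and Mcm7 shares 321 with Ap4m1, each on the opposite strand in GENCODE M21. Rb1 shares 408 with Lpar6 and 488 with Rcbtb2, also on the opposite strand. Exosc9 averaged 32.4 ± 5.69 CPM in PBP and 37 ± 5.14 CPM in PP (SD, n = 5 each), against 9.43 ± 1.84 CPM in PBP and 10 ± 1.51 CPM in PP for Ccna2. Tspan31 averaged 392 ± 45.1 CPM in PBL and 480 ± 63.7 CPM in PL, where Cdk4 was called lower. Ap4m1 averaged 14.7 ± 2.15 CPM in PBL and 30.6 ± 6.51 CPM in PBP, where Mcm7 was called lower. The part of overlapping reads in these calls was not tested.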

How the data were processed

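Poly(A) RNA of FACS-sorted brain microglia was sequenced, 1 library per sample, in 29 samples of 6 groups, which were taken from the sample titles. The authors deposited raw counts of reads for each gene, without normalization. The submitters' processing notes name FastQC 0.11.9, cutadapt 2.10, TopHat, SAMtools 1.10, Picard 2.13.2, HTSeq 0.11.0 and the build GRCm39, without role or order. A second deposited table lists RNA quality as a score of integrity (6.5 to 9.1 here, higher meaning more intact RNA), with the authors' record of RNA concentration and sorting day.

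edgeR 4.0.16 in R 4.3.3 was used with filterByExpr, TMM scaling and a robust quasi-likelihood fit of the 6 groups (23 residual degrees of freedom, biological coefficient of variation 0.26). Two-sided p-values were adjusted by Benjamini-Hochberg over 16632 genes and called under 0.05. DESeq2 1.42.0 and limma 3.58.1 (voom) were alternatives, and the fit was tested on simulated data. A fitted fold change of a gene with 0 counts in some libraries depends on the prior count. Total counts of 5670450 to 12671476 per library (median 7597841) limit the precision of the mitotic genes, which rest on few reads. The 56 pairs of libraries within groups differed beyond sampling noise (chi-square per degree of freedom 5.47 to 32.45), so each counted as 1 sample.

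Members, gene lists and marker lists were chosen with earlier results of these data known. Members were described by role. Named with values in each comparison were the called members and a fixed set of 12 (Mki67, Top2a, Cdk1, Mcm2, Mcm5, Pcna, Ccnd1, Ccnd2, Ccnd3, Cdkn1a, Cdkn1b and Cdkn2c) where they bear on it, and at most 4 called genes of each further list. Promoters came from RefSeq by symbol, and exon lengths and overlaps from GENCODE M21 (GRCm38), so no coordinates of the counts' own build were used. Alternatives were another scaling or test, no filter, sorter, sorting day or replicate number in the model, the compared groups alone, and leaving out each library.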

Additional observations from a re-analysis of the deposited data

Results flagged for a closer look

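Of 144 group-wise sets of values checked over 22 members, 9 held a library far from the others of its group. The check marks about 1 group in 20 by chance. Top2a stood at 2.68 CPM in LBL replicate 1, with the next LBL library at 0.68. Mcm2 stood at 0.403 CPM in PBP replicate 3, with the next at 2.92. In PBP replicate 5, the XDP-sorted library of that group, Cdk2 stood at 16.8 CPM (next 33.2) and Mcm3 at 38.8 CPM (next 62.3). Cdk4 stood at 195 CPM in PL replicate 3, the library with the lowest RNA quality number (6.5), with the next at 230. Cdk6 stood at 196 CPM in PBL replicate 4 (next 165) and at 96 CPM in PP replicate 5 (next 65.2). Aurkb stood at 1.55 CPM in PBL replicate 4 (next 0.137) and at 0 in PL replicate 1 (next 0.891).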

How the results depend on the processing

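Counts of members called higher stayed within 1.5 times of the reported count in every comparison under every alternative, except 1 higher in LBL against PBL without PBL replicate 2. Counts of members called lower were less stable, and the cause was not tested. In PBP against PP they became 1 with DESeq2, limma voom or the sorter as a covariate. The sorter term rests on PBP replicate 5, and Ccnb2 had −2.83 both with that covariate and without that library. In PBL against PL they became 3 with the RLE scaling, 1 with the compared groups alone and 0 with the sorter or sorting day as a covariate. In LBL against LL they became 0 with RLE, limma voom, no filter, sorting day or the compared groups alone. They became 2 in PL against PP with sorting day, 1 in PBL against PBP with the sorter or sorting day, and in LL against PL 2 with limma voom and 0 with the sorter. Leaving out 1 library gave 0 to 1 lower in PBP against PP and in LBL against LL, 1 to 6 in PBL against PL, 2 to 4 in PL against PP, 7 to 11 in PBL against PBP, 1 to 2 in LL against PL and 1 to 3 (with 0 to 1 higher) in LBL against PBL. The estimate of Cdk1 between PBP and PP turned to 0.05 with the sorter and 0.39 with sorting day (−0.27 to 0.05 when leaving out 1 library), that of Ccnd3 ranged from −0.17 to 0.11 when leaving out 1 library, and that of Cdk2 between PBL and PL turned to 0.41 with the sorter and 0.06 with sorting day. For 30 called member changes, 182 of 236 values under the other alternatives kept the call, 52 lost it and 2 reversed, and 227 of 285 kept it when 1 library was left out. Sorting day could not be fitted for LL against PL and LBL against PBL.

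Over all genes, calls in PBP against PP were 48 higher and 40 lower, against 184 and 93 with DESeq2 and 6 and 5 with sorting day. In PBL against PL they were 1828 and 1845, against 0 and 3 with the sorter and 2 and 3 with sorting day, and in PBL against PBP 3580 and 3583, against 1230 and 994 with the sorter and 1301 and 1078 with sorting day. LL against PL had 125 and 338, against 1 and 10 with the sorter. Without scaling, the median log2 fold change of all genes moved most in LL against PL, from 0.012 with TMM to 0.132.

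Deviations of same-numbered libraries from different groups correlated between −0.311 and 0.369 (median 0.0132 over 70 pairs). Those of other-numbered libraries correlated between −0.323 and 0.307 (median 0.00086 over 280 pairs). Of 29 libraries 10 correlated best with their own number. Whether replicate numbers pair the samples was not tested. With a replicate block, 0 members were called in PBP against PP, 6 lower in PBL against PL, 4 higher and 3 lower in PL against PP and 5 higher and 8 lower in PBL against PBP. At this depth a gene without reads in a whole group is limited to below 0.07 to 0.101 CPM, for counting error alone.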
